A study of Mus musculus with 8 samples.

Results

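The cells described here are the Olig progenitors of the embryonic mouse cortex, chosen by their transcripts of Olig1 and Olig2. A cell was a droplet barcode with 2300 or more unique molecular identifiers (UMIs, each standing for 1 captured RNA molecule) and 800 or more genes seen, of whose UMIs no more than 10% were mitochondrial. An Olig progenitor was a cell with at least 2 UMIs of Olig1 plus Olig2. Cells that also held at least 2 UMIs of Dlx1, Dlx2 and Dlx6os1 together and at least 4 UMIs of Ccnd2 were left out. The rule found 141 cells among 15547, of which 122 came from the ShhN library and 19 from the wild type library.

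The study used CD1 mouse cortex at embryonic day 16.5. The ShhN brains had received a ShhN plasmid by in utero electroporation at E13.5, a method that drives DNA into progenitors lining the ventricle of some part of the cortex, so that a library mixes cells with and without plasmid. The plasmid encodes the active amino-terminal piece of sonic hedgehog (SHH), a secreted signal. The wild type brains were littermates, and the labels do not say whether they were electroporated with another plasmid. The labels list 4 samples in each group, but each group's cells arrived in 1 droplet library whose barcodes cannot be traced to samples. There was thus 1 library per group and no replicate check of any difference. Values in square brackets are 95% intervals for counting error alone, which leave out variation from embryo to embryo and from library to library.

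OLIG2 and OLIG1 are basic helix-loop-helix transcription factors encoded by neighbouring genes. In the forebrain they are made in ventral progenitors under SHH signalling, in progenitors that divide while shifting towards glial fates, and through the whole oligodendrocyte lineage. EGFR, the epidermal growth factor receptor, marks progenitors in transition to making glia and olfactory bulb interneurons. PDGFRA, a receptor for platelet-derived growth factor, marks oligodendrocyte precursor cells, where SOX10 acts with OLIG2. Eomes marks the intermediate progenitors that make excitatory neurons, and cells with at least 2 Eomes UMIs and no Olig1 or Olig2 UMI served as the comparison within each library.

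The ShhN library held 69470062 UMIs and 8314 cells, with a median of 6758.5 UMIs per cell, and the wild type library held 63760199 UMIs and 7233 cells, with a median of 6385. As a check of the labels, Shh was seen in 607 of 8314 ShhN cells and in 0 of 7233 wild type cells, which allows a share of up to 0.0415%. The libraries shared 79 cell barcodes, against 81.6 by chance. Olig progenitors were deeper than the other cells, with medians of 8142 UMIs in the ShhN and 8695 in the wild type library, while Eomes cells had 6653.5 and 6128. Scrublet called 12 of the 122 ShhN Olig progenitors and 1 of the 19 wild type ones as doublets, against 246 of 8314 and 280 of 7233 of all cells. Doublets were kept. Without them the share of Olig progenitors was 5.27 times as high in the ShhN as in the wild type library.

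Olig progenitors made up 1.47% [1.22, 1.75] of ShhN cells and 0.263% [0.158, 0.410] of wild type cells, a ratio of 5.59 [3.43, 9.60]. Since deeper cells pass a UMI threshold more easily, the rule was also applied after each cell had been thinned to 4500 UMIs. This left out 1058 ShhN and 1685 wild type cells, and gave 98 of 7256 ShhN cells (1.35%) and 19 of 5548 wild type cells (0.342%), a ratio of 3.94 [2.40, 6.83]. The share follows from the Olig UMIs that chose the cells and compares 1 library with 1 library, so it is given as a description.

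Olig1 (chromosome 16, 91269772 to 91271933, plus strand, GRCm38) and Olig2 (chromosome 16, 91225457 to 91228677, plus strand) chose the cells, so their levels are given as a description. Per ShhN Olig progenitor, Olig1 had between 0 and 53 UMIs with a median of 3, and Olig2 had between 0 and 21 with a median of 3. Per wild type Olig progenitor, Olig1 had between 1 and 55 UMIs with a median of 13, and Olig2 had between 1 and 16 with a median of 6. Both genes were seen in 75 of 122 ShhN and in 19 of 19 wild type cells. Olig2 was seen without Olig1 in 41 ShhN cells and in 0 wild type cells. Olig1 was seen without Olig2 in 6 ShhN cells and in 0 wild type cells.

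The libraries differed in how the Olig UMIs were spread over cells. Of the ShhN Olig progenitors, 27 had 2 Olig UMIs, 34 had 3 to 5 and 61 had 6 or more. Of the wild type ones, 0 had 2, 1 had 3 to 5 and 18 had 6 or more. Just outside the rule, 158 ShhN and 37 wild type cells had exactly 1 Olig UMI. Olig UMIs were rare where they should be absent, in 1 of 38 ShhN and 0 of 53 wild type vascular cells, taken as cells with at least 4 UMIs of 10 vascular genes (median depths 7913 and 7473 UMIs). Barcodes with 1 to 50 UMIs, which hold free RNA, had 23.5 Olig CPM (UMI counts scaled to a fixed total) in the ShhN and 31.3 in the wild type library, against 1370 CPM in ShhN and 2170 CPM in wild type Olig progenitors.

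**Figure D1:**
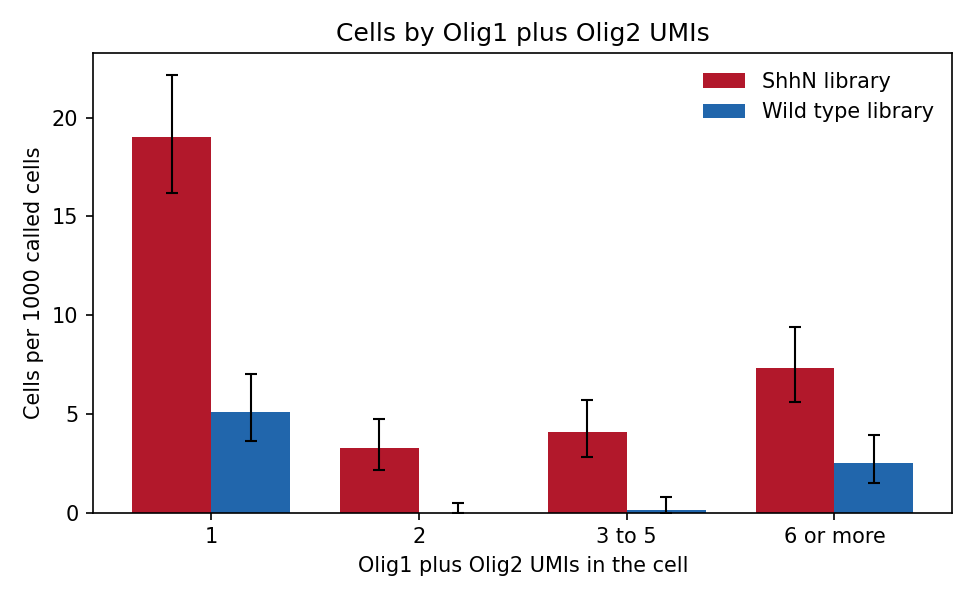
Cells per 1000 called cells (vertical axis) by their UMIs of Olig1 plus Olig2 (horizontal axis), in the ShhN and the wild type library, with exact 95% counting intervals as error bars. The bars for 2 or more UMIs leave out cells with Dlx UMIs and high Ccnd2. Cells with 6 or more UMIs number 7.34 per 1000 in the ShhN and 2.49 per 1000 in the wild type library, and cells with 2 UMIs 3.25 and 0.

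The marker genes were next set against the label at equal depth. At 4500 UMIs per cell, Egfr (chromosome 11, 16752203 to 16918158, plus strand) was seen in 32.8% [24.3, 42.1] of 116 ShhN Olig progenitors and 1.29% of 929 ShhN Eomes cells. In the wild type library it was seen in 5 of 19 Olig progenitors (26.3%) and 1.10% of 636 Eomes cells. Vascular cells, which should lack it, had Egfr in 2.94% of 34 ShhN and 2.5% of 40 wild type cells. Unthinned, Egfr was seen in 48.4% of ShhN and 42.1% of wild type Olig progenitors. Egfr was thus frequent in the Olig progenitors of each library, and its share in Eomes cells was at or below the vascular share.

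Pdgfra (chromosome 5, 75152292 to 75198215, plus strand) was seen at equal depth in 19.8% [13.0, 28.3] of ShhN Olig progenitors and in 0 of 929 ShhN Eomes cells, which allows a share of up to 0.323%. It was seen in 7 of 19 wild type Olig progenitors (36.8% [16.3, 61.6]) and in 0 of 636 wild type Eomes cells, which allows up to 0.472%. Unthinned, the shares were 30.3% of ShhN and 36.8% of wild type Olig progenitors. Sox10 was seen in 7.76% of ShhN and 21.1% of wild type Olig progenitors, and in 0 Eomes cells of either library. The intervals of the libraries overlapped for Egfr, Pdgfra and Sox10.

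Gsx2 (chromosome 5, 75075601 to 75077893, plus strand), a homeobox factor of the lateral ganglionic eminence, was seen in 20.7% [13.7, 29.2] of ShhN Olig progenitors and 0.538% of ShhN Eomes cells. It was seen in 1 of 19 wild type Olig progenitors and 1 of 636 wild type Eomes cells. Sox2, a stem cell factor, was seen in 69.0% of ShhN and 73.7% of wild type Olig progenitors, against 35.0% and 36.0% of their Eomes cells. Sox2 was thus seen in most Olig progenitors and Egfr in many, while Pdgfra and Sox10 were each seen in a minority.

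**Figure D2:**
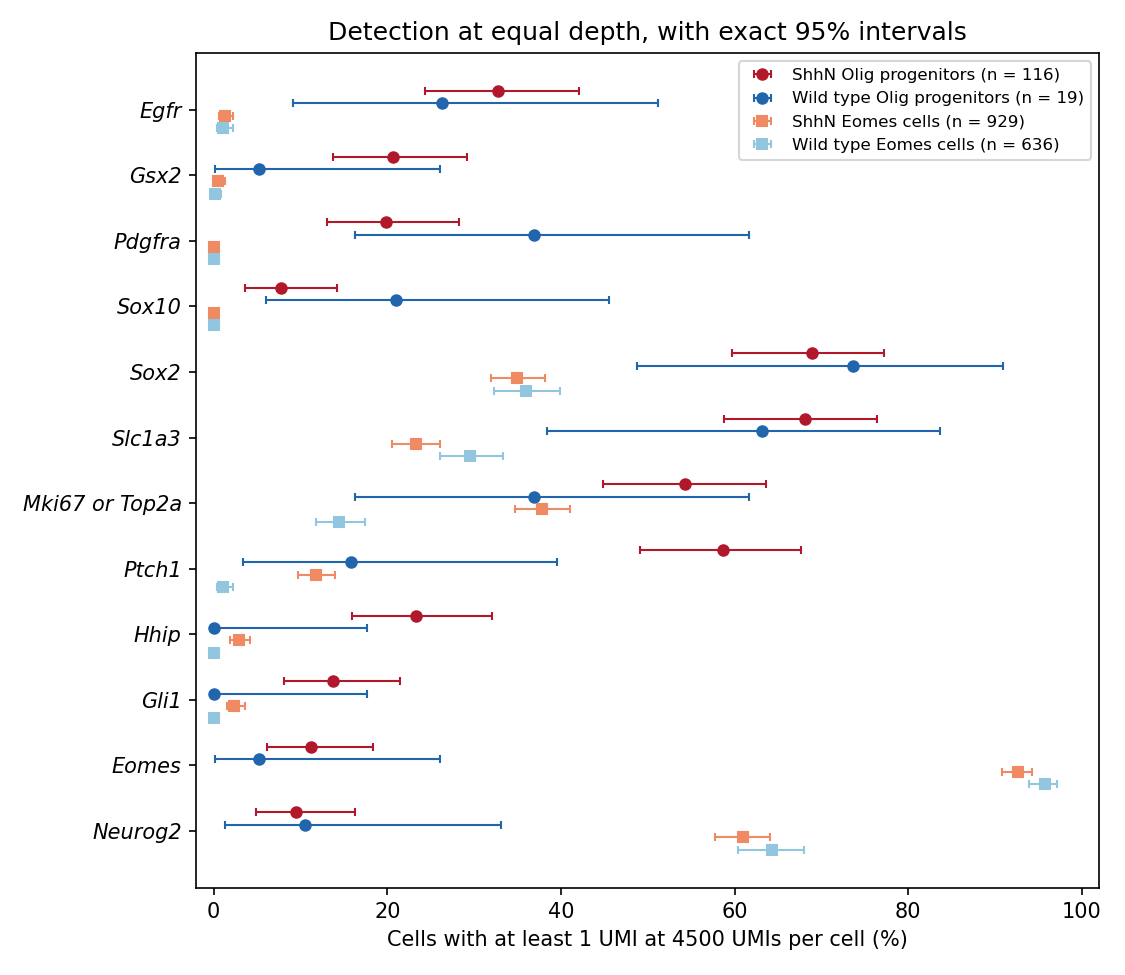
Share of cells with at least 1 UMI of each gene (horizontal axis, percent) after thinning to 4500 UMIs, in ShhN and wild type Olig progenitors (circles) and ShhN and wild type Eomes cells (squares), with exact 95% counting intervals. Egfr and Pdgfra are more frequent in the Olig progenitors of each library than in its Eomes cells, Ptch1 reaches 58.6% in ShhN and 15.8% in wild type Olig progenitors, and Eomes is shown although it chose the Eomes cells.

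UMIs were then summed over the 122 ShhN Olig progenitors and over the 1004 ShhN Eomes cells, and levels compared as CPM. A gene counted as measured with at least 50 UMIs over both sums. It was called higher with a log2 ratio of 1 or more whose lower bound reached 0.5, and lower with a ratio of -1 or less whose upper bound reached -0.5, which is the size rule used throughout. Since the minimum is over both sums, a scarce gene can pass it through the group where it is high. Counts and medians of a list therefore describe the genes that passed and do not support a direction for the list. Of 9079 measured genes, 298 (3.28%) were higher and 347 (3.82%) lower in Olig progenitors. The median log2 ratio over all measured genes was -0.02.

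Of 7 listed genes of the Egfr progenitor state, 6 were measured and called higher in ShhN Olig progenitors, of which Egfr and Gsx2 passed the minimum only through the Olig progenitors. Egfr had 89 UMIs (78.9 CPM) in Olig progenitors and 24 UMIs (3.04 CPM) in Eomes cells, a log2 ratio of 4.70 [4.03, 5.41]. Gsx2 had 58 UMIs in Olig progenitors and 10 in Eomes cells (5.34 [4.36, 6.47]). Also among them were Fgfbp3, which carries fibroblast growth factors, and the Notch ligands Dll1 (1.36) and Dll3 (1.51).

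Of the oligodendrocyte list, 2 of 10 genes were measured, Pdgfra and Sox8, and both passed the minimum only through the Olig progenitors, where they were higher. Pdgfra had 84 UMIs in 37 Olig progenitors and 1 UMI in Eomes cells (9.20 [6.68, 14.5]), with at most 7 UMIs in a cell. Sox8, a relative of Sox10, was higher by 4.02 [3.47, 4.58]. Sox10 had 26 UMIs in Olig progenitors and 0 in Eomes cells, and Nkx2-2, a ventral homeobox factor that also acts in this lineage, had 32 and 2, both under the 50 UMIs required. Of the 12 genes ranked highest by the bound nearest 0, Pdgfra came first, and several of the others are glial or progenitor genes. Serpine2, a secreted protease inhibitor, had 88 UMIs in Olig progenitors and 16 in Eomes cells (5.26). Ednrb, the endothelin B receptor, had 86 and 16 (5.23), and Metrn, a secreted glial differentiation factor, had 110 and 49 (3.97). The transcription factors Sall3 (4.63) and Rfx4 (4.45), Fam181b (4.44) and the membrane protein gene Ntng1 (4.86) were also among the 12. Serpine2, Ednrb, Metrn, Rfx4 and Ntng1 likewise passed the minimum only through the Olig progenitors.

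Of 13 measured radial glia and stem cell genes, 11 were higher and Pax6 was lower, with a median of 2.43. Slc1a3, the glutamate transporter of radial glia, had 401 CPM in Olig progenitors and 67.6 CPM in Eomes cells (2.57 [2.38, 2.75]). Fabp7, a fatty acid binding protein of radial glia, had 1623 CPM in Olig progenitors and 283 CPM in Eomes cells (2.52 [2.43, 2.61]). Pax6, a dorsal progenitor factor, had 100.2 CPM in Olig progenitors and 206 CPM in Eomes cells (-1.04 [-1.33, -0.76]). Of 8 measured astrocyte genes 6 were higher, among them Bcan, which encodes an extracellular proteoglycan (3.14), and the gap junction gene Gja1 (3.01).

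Signalling lists differed in how many members were called. Of 10 measured Notch pathway genes 7 were higher, including the receptor Notch2 (3.14), the ligand Jag1 (3.41) and the effectors Hes1 (1.77) and Hes5 (2.20). Mfng, a glycosyltransferase that modifies Notch, was lower (-1.24). Of 6 measured genes of the response to fibroblast growth factor and ERK 3 were higher. These were the ETS factor Etv5 (5.26) and the feedback inhibitors Spry2 (3.06) and Dusp6 (3.77). In the BMP list 2 of 6, Id1 (2.55) and Id3 (2.08), were higher. The immediate early gene Egr1 was the higher 1 of 7 in its list (2.63), and Cdkn1a, an inhibitor of cyclin-dependent kinases, the higher 1 of 5 in its list (2.13).

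Of 8 listed targets of the SHH pathway 6 were measured. Of these, 4 were called higher in Olig progenitors than in Eomes cells of the same ShhN library. The count does not support a direction for the list, and Gli1 passed the minimum only through the Olig progenitors. Ptch1 (chromosome 13, 63508328 to 63573598, minus strand), the SHH receptor that the pathway also induces, had 284 CPM in Olig progenitors and 33.6 CPM in Eomes cells (3.08 [2.84, 3.32]). Hhip (chromosome 8, 79965851 to 80058006, minus strand), which binds SHH outside the cell, had 50 UMIs in Olig progenitors and 63 in Eomes cells (2.47 [1.91, 3.03]). Gli1, a transcription factor turned on by the pathway, had 35 and 49 UMIs (2.32 [1.65, 2.97]). Ccnd1 was higher by 1.20, and Mycn (-0.44) was not called. Of 8 measured receptors and mediators Gas1, a co-receptor, was higher (3.24) and the other 7, Smo (0.19) among them, were not called. Shh itself was seen in 8 of 122 Olig progenitors and 48 of 1004 Eomes cells. At equal depth the shares were 6.03% and 4.09%, against 6.45% of all ShhN cells and 0 of 34 vascular cells.

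The neurogenic program of the Eomes cells was lower in ShhN Olig progenitors. Of 11 measured genes 8 were lower, with a median of -2.38, and since the comparison cells were selected on Eomes this describes the contrast. Neurod1, a factor of early neurons, had 23 UMIs in Olig progenitors and 1805 in Eomes cells (-3.49 [-4.15, -2.90]). Neurog2, the proneural factor of cortical neurons, had 56 and 2272 UMIs (-2.54), and the somatostatin receptor gene Sstr2 had 34 and 2251 (-3.24). Of 10 measured excitatory neuron genes 7 were lower, for example Neurod6 (-1.72) and the glutamate transporter gene Slc17a6 (-2.52). Other genes among the 12 ranked lowest were Nrn1 (-3.76), the neuronal splicing factor gene Srrm4 (-2.74) and Plcb1 (-3.31). Klhdc8a had 0 UMIs in Olig progenitors and 115 in Eomes cells, and was at least 5.49-fold lower against a floor of 3 counts over the group.

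Of 8 measured dorsal patterning genes 6 were lower, with a median of -1.53. Emx1 (-2.17) and Lhx2 (-1.49), homeobox factors of the cortex, were among them. Nfib (-1.19) and Nfix (-1.13), nuclear factor I genes that act in progenitors and glia, were lower, and the other 2 genes of their list were not called. Interneuron genes showed no shared direction. In the olfactory bulb list, Sp9 (1.91) and Etv1 (2.49) were higher and Meis2 (-1.03) lower of 5 measured, and 0 of 2 cortical interneuron genes were called. Of 2 measured ventral patterning genes, Gsx2 was higher and Dbx1 (-3.24) lower.

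Cell cycle genes were called in 0 of 39 S phase and 0 of 51 G2 and M phase genes, with medians of 0.14 and 0.30. At equal depth, a Mki67 or Top2a UMI, which marks dividing cells, was seen in 54.3% [44.8, 63.6] of ShhN Olig progenitors and 37.8% [34.7, 41.0] of ShhN Eomes cells. In the wild type library the shares were 36.8% [16.3, 61.6] of Olig progenitors and 14.5% [11.8, 17.4] of Eomes cells. Vascular cells had such a UMI in 17.6% of ShhN and 5% of wild type cells. Unthinned, the shares were 59.8% of ShhN Olig progenitors and 40.6% of ShhN Eomes cells.

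Vascular, microglial and choroid plexus markers were nearly absent, while neuronal and erythroid transcripts were present. The 10 vascular genes had 9 UMIs in all ShhN and 1 UMI in all wild type Olig progenitors, the 9 microglial genes 1 and 0, and the 5 choroid plexus genes 0 and 0. The Cajal-Retzius gene Reln passed the rule as higher in ShhN Olig progenitors (2.44), but 1 cell carried its 24 UMIs. Cortical interneuron genes had 113 UMIs (100.2 CPM) in ShhN and 25 UMIs (130.1 CPM) in wild type Olig progenitors, and 263 CPM in the ShhN and 370.3 CPM in the wild type free RNA. Excitatory neuron genes had 727 UMIs in ShhN and 61 in wild type Olig progenitors, with medians of 1 and 2 UMIs per cell. Erythroid genes had 449 CPM in ShhN Olig progenitors and 4308 CPM in ShhN Eomes cells, of whose 33966 erythroid UMIs 14077 lay in 1 cell. They had 906 CPM in wild type Olig progenitors and 5516 CPM in wild type Eomes cells, and 12787 CPM in the ShhN and 22968 CPM in the wild type free RNA. The part of free RNA in the lower values was not tested.

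The same contrast in the wild type library, whose cells are separate, rests on 19 Olig progenitors and 743 Eomes cells and used a minimum of 20 UMIs. Of 10179 measured genes, 385 (3.78%) were higher and 302 (2.97%) lower in wild type Olig progenitors, with a median over all of 0.03. Leaving out the genes of the cell rules, 296 genes were higher in the ShhN library. Of these, 284 were measured in the wild type library and 256 had the same sign there. Genes with 0 UMIs in wild type Olig progenitors were set to the floor of 3 counts, so part of the 256 can come from the floor. Pdgfa, with 0 UMIs in wild type Olig progenitors and 51 in wild type Eomes cells, was counted as the same sign (0.74). Past the rule in both were 132 genes, or 44.6% of the ShhN and 34.5% of the wild type list. Of 346 genes lower in the ShhN library, 344 were measured, 321 had the same sign, and 167 were past the rule in both, 48.3% of the ShhN and 55.5% of the wild type list. Past the rule in opposite directions were 0 genes.

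Named examples in the wild type library included Serpine2, with 51 UMIs in Olig progenitors and 17 in Eomes cells (6.41 [5.59, 7.29]), Metrn (5.26), Egfr (5.05), Sox8 (4.43), Sall3 (4.57), Spry2 (4.34) and Spry1 (4.58). Neurog2, with 3 UMIs in Olig progenitors and 1746 in Eomes cells (-4.36), Tenm4 (-4.61), Plcb1 (-5.32), Elavl2 (-3.43) and Neurod6 (-3.31) were lower. Ptch1 was higher there too, with 8 UMIs in Olig progenitors and 14 in Eomes cells (4.02 [2.56, 5.37]). Gli1 had 0 and 1 UMIs and Hhip 0 and 0. Serpine2, Egfr, Spry1 and Ptch1 passed the minimum of the wild type contrast only through the Olig progenitors. By list, wild type Olig progenitors had 9 of 15 radial glia genes, 6 of 9 astrocyte genes and 4 of 7 fibroblast growth factor and ERK genes higher, and 6 of 11 neurogenic and 5 of 9 dorsal patterning genes lower. In the cell cycle lists, 15 of 39 S phase and 34 of 50 G2 and M phase genes were higher in wild type Olig progenitors than in wild type Eomes cells. These sums rest on few cells, since 3 of the 19 wild type Olig progenitors held 77.8% of the Mki67 and 74.7% of the Top2a UMIs. The Mki67 ratio was 1.59 in the wild type library. Among dividing cells alone, taken as cells with at least 2 UMIs of Mki67 plus Top2a, it was -0.24. That change is no finding, since Mki67 helped to choose the dividing cells.

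**Figure D3:**
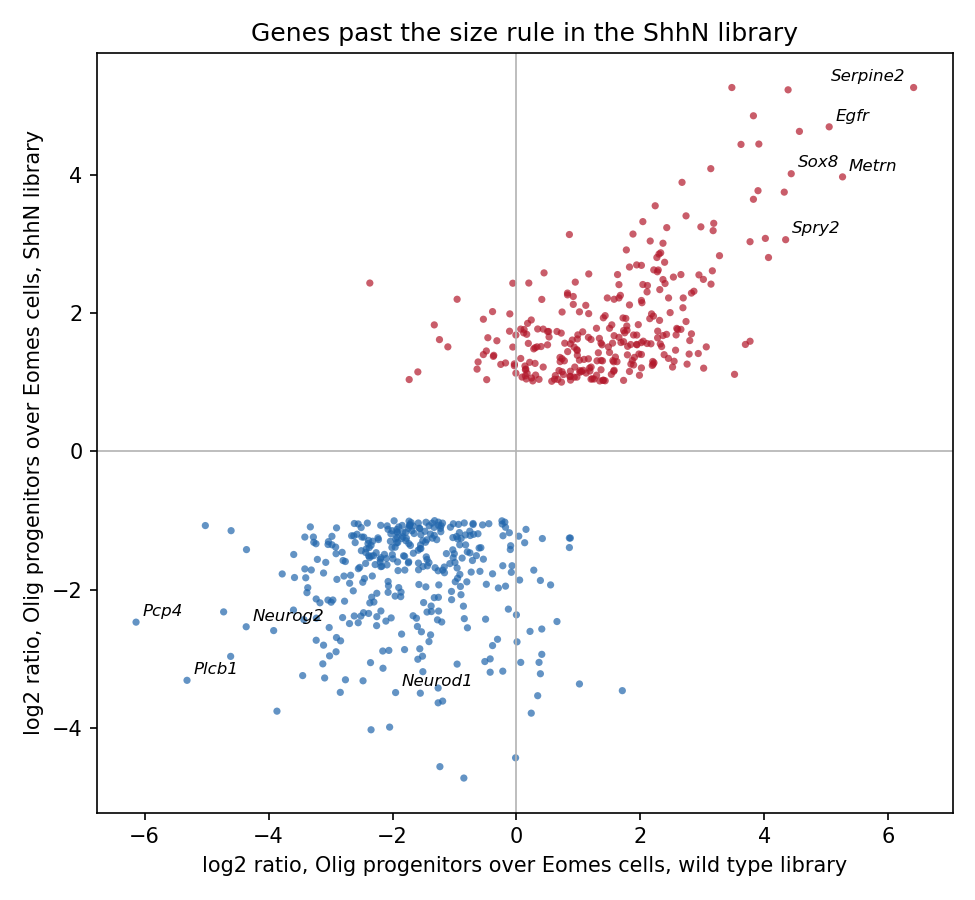
Each point is a gene past the size rule in the ShhN library, leaving out genes of the cell rules. The vertical axis gives its log2 ratio of Olig progenitors over Eomes cells in the ShhN library and the horizontal axis the same in the wild type library, with a floor of 3 counts where a group had 0 UMIs. Of the 284 higher genes measured in both, 256 lie right of 0, and of the 344 lower genes, 321 lie left of 0. Pdgfa, with 0 UMIs in wild type Olig progenitors, lies right of 0 only through the floor of 3 counts.

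Olig progenitors of the ShhN library were then set against those of the wild type library, 122 against 19 cells. Of 6608 genes with at least 20 UMIs over both sums, 36 (0.545%) were higher and 45 (0.681%) lower in the ShhN library, and the median over all was 0.03. SHH targets supplied 2 of the higher genes out of 7 measured, a count that does not support a direction for the list. Ptch1, Hhip and Gli1 passed the minimum only through the ShhN cells, whose sum was the larger. Ptch1 had between 0 and 11 UMIs per ShhN cell with a median of 1, and between 0 and 2 per wild type cell with a median of 0. Its level was 284 CPM in ShhN and 41.6 CPM in wild type Olig progenitors (2.77 [1.78, 4.00]), from 321 UMIs in 78 ShhN cells and 8 UMIs in 6 wild type cells. Hhip had 50 UMIs in 34 ShhN cells and 0 UMIs in the wild type cells, at least 2.84-fold higher against a floor of 3 counts over the group. With the thinned counts the Hhip log2 ratio to the floor was 0.51, under the ratio of 1 that the size rule requires. Gli1 had 35 UMIs in 26 ShhN cells and 0 in wild type cells, at least 1.99-fold, and was not called.

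Pdgfa (chromosome 5, 138976014 to 138997370, minus strand), which encodes a ligand of PDGFRA, ranked first among the higher genes. It passed the minimum only through the ShhN cells. It had 99 UMIs in 42 of 122 ShhN Olig progenitors and 0 UMIs in 19 wild type ones, which allows a wild type share of cells with a UMI of up to 15.8% by a limit of 3 counts. Against a floor of 3 counts over the wild type group the level was at least 5.62-fold higher in the ShhN library, a log2 ratio of 2.49 whose lower counting bound was 2.17. In ShhN Eomes cells Pdgfa had 171 UMIs (21.7 CPM), against 87.7 CPM in ShhN Olig progenitors (2.02 [1.64, 2.38]). Wild type Eomes cells had 51 UMIs (9.37 CPM). Pdgfra itself did not differ past the rule, with 74.4 CPM in ShhN and 62.5 CPM in wild type Olig progenitors (0.25 [-0.63, 1.26]).

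Of 8 measured excitatory neuron genes 1, Neurod6, was higher in the ShhN library. Among the other genes ranked highest, Stmn2, a regulator of neuronal microtubules, had 338 UMIs in 61 ShhN cells and 10 in 7 wild type cells (2.52 [1.63, 3.60]), Igfbpl1 1129 and 52 (1.89), Pcp4 76 and 1 (3.69), and Neurod6 itself 321 and 16 (1.77) and the long noncoding RNA Meg3 260 and 13 (1.77). Neurod6 at equal depth was seen in 35.3% of ShhN and 21.1% of wild type Olig progenitors, against 11.8% of ShhN and 25% of wild type vascular cells. The summed excitatory neuron list had 644 CPM in ShhN and 317 CPM in wild type Olig progenitors, and 2908 CPM in ShhN and 3014 CPM in wild type free RNA. When cells with a single Olig UMI were let in, 4 of these changed sign, with ratios of -0.57 for Stmn2, -0.43 for Pcp4, -0.19 for Neurod6 and -1.16 for Meg3, while Igfbpl1 was at 0.19. Meg3 was also at -0.16 with thinned counts. With the called doublets removed, Stmn2, Igfbpl1, Pcp4, Neurod6 and Meg3 kept their sign. The part of uncalled doublets and free RNA in these genes was not tested. Snhg18, Kif21a, Fam53b and Mtfr1 completed the 12 genes ranked highest.

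Glial and growth factor response genes were among those lower in the ShhN library. Lgals1, which encodes galectin-1, had 44 UMIs in 33 ShhN cells and 51 in 10 wild type cells (-2.77 [-3.38, -2.16]), and its ratio was -1.53 with thinned counts. Serpine2 had 88 and 51 UMIs (-1.77 [-2.28, -1.24]), and Fabp7 had 1623 CPM in ShhN and 3700 CPM in wild type Olig progenitors (-1.19 [-1.31, -1.06]). Fabp7 was the only gene called of 13 in the radial glia list, and Mt3, a metallothionein (-1.64), the only one of 7 in the astrocyte list. Spry2 had 55 UMIs in 24 ShhN cells and 38 in 7 wild type cells (-2.02), and with Spry1 (-2.11) made 2 of 7 measured genes of the fibroblast growth factor and ERK list. Gpx3 (-2.73), Tagln2 (-2.42), Pmp22 (-2.84), Nxph1 (-2.67), Ostf1 (-2.25), S100a16 (-2.16) and Cntn1 (-2.36) were also among the 12 ranked lowest, each with at most 20 UMIs in the 19 wild type cells. These ratios compare groups of unlike Olig level, since 61 of 122 ShhN and 18 of 19 wild type cells had 6 or more Olig UMIs. ShhN cells with 6 or more had 136 CPM of Serpine2, 2301 CPM of Fabp7 and 70.7 CPM of Spry2. Those with 2 to 5 had 16.4, 905 and 25.5 CPM. Mt3 went the other way, with 55.2 CPM at 6 or more and 128 CPM at 2 to 5.

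With 0.545% of all measured genes higher and 0.681% lower, short lists without a call are near the background and say nothing about those lists. The counts were 0 of 5 measured oligodendrocyte genes, 0 of 6 Egfr progenitor genes, 0 of 38 S phase, 0 of 50 G2 and M phase, 0 of 7 dorsal patterning and 0 of 6 SHH receptor and mediator genes. They were also 0 of 5 olfactory bulb interneuron, 0 of 2 ventral patterning, 0 of 4 BMP, 0 of 4 nuclear factor I and 0 of 5 cyclin-dependent kinase inhibitor genes. Of 3 measured erythroid genes 2 were lower. Egfr had 78.9 CPM in ShhN and 72.9 CPM in wild type Olig progenitors (0.11 [-0.71, 1.04]). Gsx2 had 58 UMIs in ShhN and 5 in wild type Olig progenitors (0.98 [-0.32, 2.66]), an interval that spans both no difference and a large one. Called outside the lists above were Hes5, higher (1.57), Npy, a neuropeptide gene, higher (2.56), and Neurod1, lower (-1.84), whose 14 wild type UMIs lay in 2 cells. Among immediate early genes Fos (1.27) and Jun (1.34) were higher and Junb (-2.11) lower of 7.

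**Figure D4:**
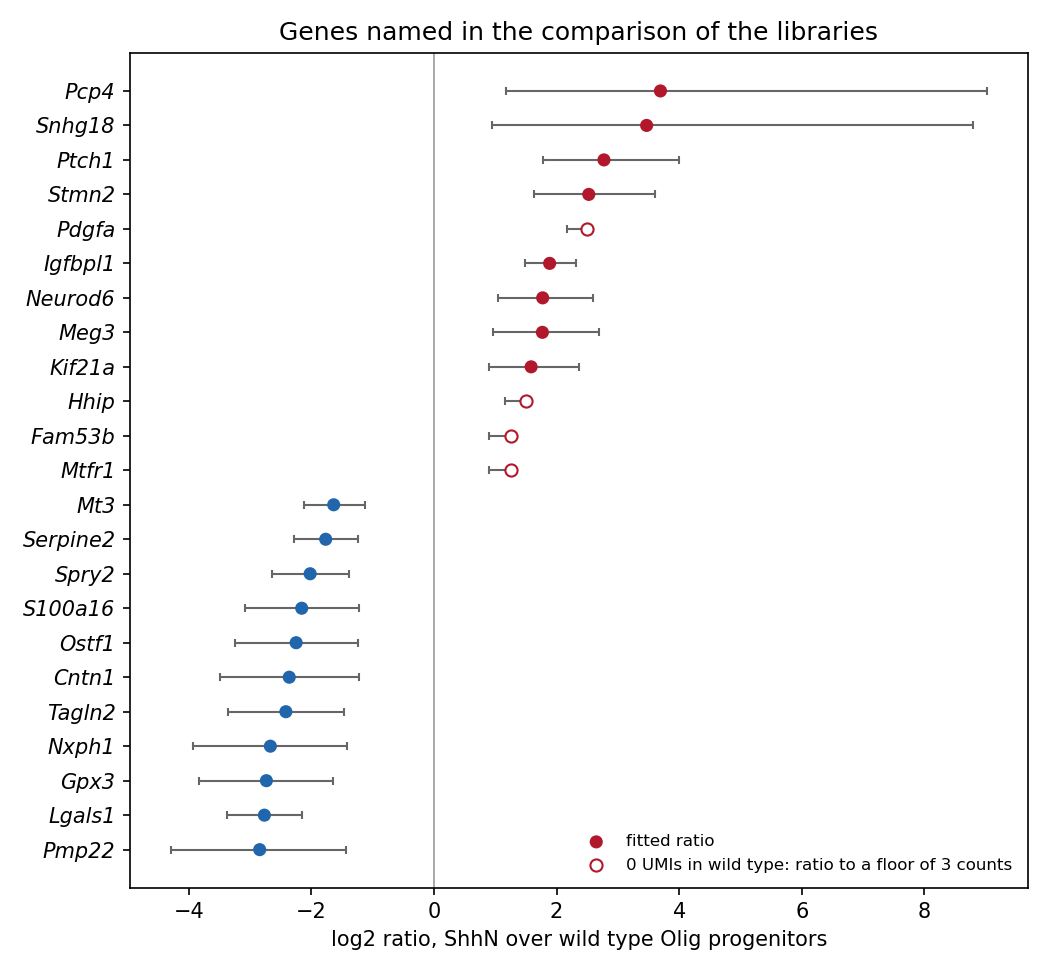
Log2 ratio of ShhN over wild type Olig progenitors (horizontal axis) for the genes named in this comparison among the 12 highest and 12 lowest past the size rule, with exact 95% counting intervals. Open circles have 0 UMIs in the 19 wild type cells, so the value is a ratio to a floor of 3 counts and the bar shows only the lower bound. Ptch1 stands at 2.77 and Lgals1 at -2.77.

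Olig progenitors varied among themselves. Of the 122 ShhN cells, 59 had an Egfr UMI, 64 had at least 2 UMIs of Mki67 plus Top2a, 38 had a Pdgfra or Sox10 UMI, 10 had at least 2 Eomes UMIs, 3 had at least 2 Dlx UMIs, and 17 had none of these. Of the 19 wild type cells the counts were 8, 8, 7, 0, 0 and 3. The Dlx counts follow largely from the rule, which left out cells with at least 2 Dlx UMIs and at least 4 Ccnd2 UMIs. Egfr was seen in 19 of 38 ShhN cells with Pdgfra or Sox10 and in 40 of the other 84. Dividing cells were 14 of 38 (36.8% [21.8, 54.0]) with Pdgfra or Sox10 and 50 of the other 84 (59.5% [48.3, 70.1]). Of the 10 cells with Eomes, 8 were dividing and 1 had Pdgfra or Sox10. These counts were not thinned, and the 10 cells had a median of 10954 UMIs, against 8142 for all ShhN Olig progenitors. The part of depth and doublets in this overlap was not tested.

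The 38 ShhN cells with Pdgfra or Sox10 were compared with the other 84. Of 3349 measured genes 46 (1.37%) were higher and 52 (1.55%) lower, with a median over all of -0.06, and Pdgfra is no finding since it chose the cells. Serpine2 had 74 UMIs in 21 cells with Pdgfra or Sox10 and 14 UMIs in 10 of the others (3.52 [2.69, 4.46]). Bcan (2.53), the proteoglycan gene Cspg5 (2.59), the myelin enzyme gene Cnp (2.55), Dll3 (2.30), Fabp7 (1.59) and Sox9 (1.27) were also higher. Serpine2, Cspg5 and Dll3 passed the minimum only through the cells with Pdgfra or Sox10, and Bcan and Cnp mostly through them. Of 8 listed SHH targets 4 were measured, of which Hhip reached the minimum mostly through the other cells. In the cells with Pdgfra or Sox10, 3 of the 4 were called lower, a count that does not support a direction for the list. Ptch1 had 49 UMIs (138 CPM) there and 272 UMIs (352 CPM) in the other cells (-1.35 [-1.82, -0.91]), Hhip 6 and 44 UMIs (-1.75) and Mycn 14 and 78 (-1.36). Hes1 (-1.77) and Hes5 (-1.66), the cyclin gene Ccnb2 (-2.27), Neurog2 (-1.69), Lhx2 (-1.05) and Meis2 (-1.01) were lower too. Egfr (-0.16) was not called.

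A division by Olig level, made after the Olig UMIs per cell had been seen, gave 61 ShhN cells with 6 or more Olig UMIs, called high, and 61 with 2 to 5, called low. High cells made up 0.734% of ShhN and 0.249% of wild type cells, a ratio of 2.95 [1.72, 5.30]. Low cells made up 0.734% of ShhN cells and 0.0138% of wild type cells, where 1 cell was found, a ratio of 53.1 [9.17, 2130]. Scrublet called 5 of the 61 high and 7 of the 61 low ShhN cells as doublets.

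High and low ShhN cells were then compared. Of 3349 measured genes, 47 (1.4%) were higher and 35 (1.05%) lower in high cells. Pdgfra had 77 UMIs in high and 7 in low cells (3.38 [2.27, 4.74]), Serpine2 79 and 9 (3.05), Npy 65 and 4 (3.94), Ncald, a calcium sensor gene, 117 and 14 (2.98), and Fabp7 1335 and 496 (1.35). Pax6 had 29 UMIs in high and 84 in low cells (-1.62 [-2.28, -0.99]), Neurog2 15 and 41 (-1.53) and Insm1, a factor of delaminating progenitors, 28 and 76 (-1.52). Pdgfra, Serpine2, Npy and Ncald passed the minimum of 50 UMIs only through the high cells, and Pax6 and Insm1 only through the low cells. The 65 Npy UMIs of high cells lay in 16 of them. Ptch1 had 161 UMIs in high and 160 in low cells (-0.07 [-0.40, 0.25]). By list, the calls in high cells were 2 higher and 1 lower of 6 Egfr progenitor genes, 2 higher and 1 lower of 12 radial glia genes, 2 lower of 5 neurogenic genes, 0 of 3 excitatory neuron genes and 0 of 4 SHH targets.

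At equal depth Pdgfra was seen in 33.3% [21.7, 46.7] of 60 high and 5.36% [1.12, 14.9] of 56 low ShhN cells, and Eomes in 3.33% [0.41, 11.5] of high and 19.6% [10.2, 32.4] of low cells. Egfr was seen in 41.7% [29.1, 55.1] of high and 23.2% [13.0, 36.4] of low cells, with intervals that overlap. Ptch1 was seen in 60.0% of high and 57.1% of low cells, and in 3 of 18 wild type high cells (16.7% [3.58, 41.4]). Pdgfa was seen in 21.7% of high and 33.9% of low ShhN cells, and in 0 of 18 wild type high cells, which allows up to 16.7%. With cells of 6 or more Olig UMIs alone in each library, the log2 ratio of ShhN over wild type was 2.68 for Ptch1, 2.28 for Pdgfa and -3.01 for Lgals1.

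**Figure D5:**
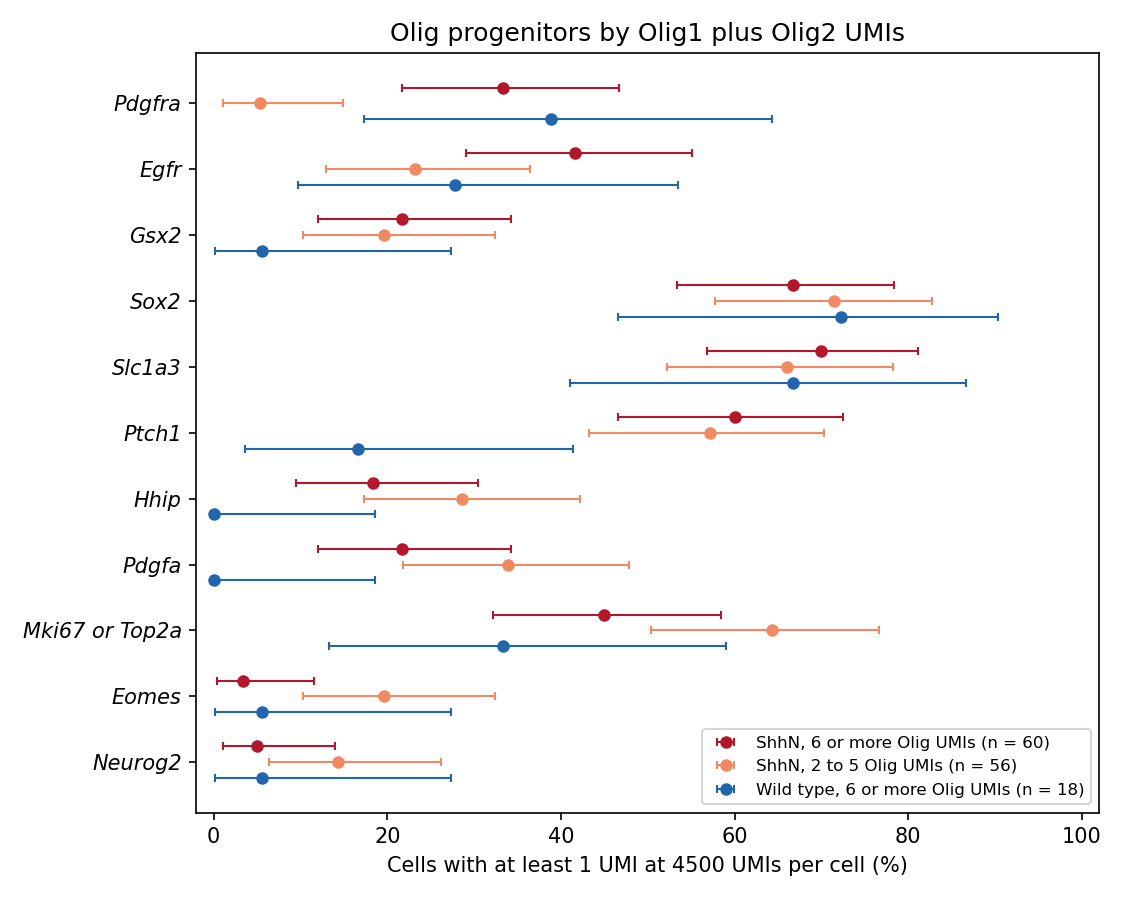
Share of cells with at least 1 UMI (horizontal axis, percent) after thinning to 4500 UMIs, in ShhN Olig progenitors with 6 or more Olig UMIs, ShhN Olig progenitors with 2 to 5, and wild type Olig progenitors with 6 or more, with exact 95% counting intervals. Pdgfra reaches 33.3% in high and 5.36% in low ShhN cells, and Ptch1 60.0% and 57.1%, against 16.7% in wild type high cells.

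The rule leaves out 43 ShhN and 2 wild type cells that met the Olig threshold but carried Dlx and high Ccnd2. At equal depth 33.3% of 42 such ShhN cells had Gsx2, 66.7% had Ptch1 and 16.7% had Pdgfra, against 20.7%, 58.6% and 19.8% of ShhN Olig progenitors, and Sox10 was seen in 0 of 42, which allows up to 7.14%. With these cells kept, the share was 1.98% of ShhN cells and the ratio to wild type 6.84.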

How the data were processed

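Single-cell RNA-seq of mouse cortex was read from the deposited counts of UMIs per gene and droplet barcode, which carry no normalization and include empty droplets, with 1 matrix per group. The submitters' processing notes name the mm10 build and the tools StringTie, Cell Ranger and Seurat 3, with roles not given in the sources used here. The matrices name their group as control or experimental, and were taken as wild type and ShhN by the sample titles. The members, the 25 gene lists and the comparisons were chosen with earlier results of these data known.

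UMIs were summed over cells and scaled to CPM. Intervals at 95% are exact Poisson for CPM, exact Clopper-Pearson for shares (a share of 0 has in the text a limit of 3 counts of the total, and in the plots the exact interval) and exact conditional binomial for ratios. With 1 library per group no test was made. A gene with 0 UMIs in a group was set to a floor of 3 counts over that group. Named genes were the 12 highest and 12 lowest past the size rule, by the interval bound nearest 0, without genes of the cell rules, globins, mitochondrial, sex-linked and unnamed genes, plus members of the lists. Some lists hold genes also expressed by the cells compared. Vascular cells had at least 4 UMIs of 10 vascular genes. Doublets were called with scrublet in scanpy 1.11.5 (expected rate 6%) and kept. TMM factors came from edgeR 4.0.16 and coordinates from GENCODE M21 (GRCm38). The ratio and its interval were tested on simulated data. Alternatives covered cell filters, Olig and Eomes thresholds, doublets, depth, scaling, cell weights and count minimums. Results for some genes are not reported here.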

Additional observations from a re-analysis of the deposited data

Results flagged for a closer look

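Signals of the marker genes were seen in cells that the Olig rule does not take, at a higher share in the ShhN than in the wild type library. Besides the Olig cells with Dlx and high Ccnd2, Pdgfra UMIs occurred outside the rule in 39 ShhN cells (0.469% of ShhN cells) and 3 wild type cells (0.0415%). Of all cells with a Pdgfra UMI, 37 of 88 ShhN and 7 of 11 wild type cells were Olig progenitors. Egfr UMIs occurred outside the rule in 107 ShhN (1.29%) and 19 wild type cells (0.263%), of which 26 ShhN and 11 wild type cells also had at least 2 Eomes UMIs. Gsx2 UMIs occurred outside the rule in 168 ShhN (2.02%) and 4 wild type cells (0.0553%). Of these, 62 ShhN cells and 1 wild type cell had at least 2 Gsx2 UMIs. Outside the rule, at least 2 Pdgfra UMIs were seen in 8 of the 39 ShhN and 0 of the 3 wild type cells. At least 2 Egfr UMIs were seen in 17 of the 107 ShhN and 2 of the 19 wild type cells, so most Pdgfra and Egfr cells had a single UMI.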

How the results depend on the processing

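The ratio of the share of Olig progenitors, ShhN over wild type, stayed above 1 in each alternative run, between 2.95 (6 or more Olig UMIs, a setting chosen after seeing the data) and 6.84. The share of ShhN cells was 3.06% with 1 or more Olig UMIs, 1.14% with 3 or more, 0.734% with 6 or more and 1.98% with the Dlx and Ccnd2 cells kept. The wild type share was 0.760% with 1 or more, and 43.3% of ShhN members then had a Mki67 or Top2a UMI. Counts of genes moved more, and the causes were not tested beyond the fewer cells or genes that a setting leaves. In the ShhN library, genes higher than in Eomes cells numbered 161 with thinned counts, 474 with equal weight per cell, 99 with a minimum of 200 UMIs, 572 with none and 165 in dividing cells alone. Genes lower numbered 151 with 1 or more Olig UMIs, 815 with equal weight and 230 in dividing cells. In the wild type library, genes higher numbered 237 with 1 or more Olig UMIs, 241 thinned, 1846 with equal weight, 136 with 200 UMIs and 51 in dividing cells, while genes lower numbered 115 with 1 or more Olig UMIs, 157 thinned, 1666 with equal weight and 112 in dividing cells. Between ShhN and wild type members, genes higher numbered 56 with 1 or more Olig UMIs, 733 with equal weight and 13 with 200 UMIs. Genes lower numbered 123 with 1 or more, 23 with 6 or more, 28 thinned, 358 with equal weight, 4 with 200 UMIs, 87 with none and 24 in dividing cells. Equal weight has no interval, so its counts use the log2 ratio alone. The sign changed between ShhN and wild type members for Stmn2 (-0.57), Pcp4 (-0.43), Neurod6 (-0.19) and Meg3 (-1.16) with 1 or more Olig UMIs, and Meg3 with the Dlx and Ccnd2 cells kept (-0.26) or thinned counts (-0.16). In dividing wild type cells Mt3 (-0.43) and Mki67 (-0.24) changed sign against Eomes cells. For Mki67 this is no finding, since it helped to choose the dividing cells. Of 1483 values of named genes, 1279 lay within the interval of the reported value, 196 outside it on the same side of 0 or uncalled, and 8 changed sign. TMM moved the median by 0.0655 or less on the log2 scale. No paired analysis was possible because no barcode names which of the 4 pooled samples it came from, so neither a replicate block nor leaving out a replicate was run. With 19 wild type members, depth and cell number limit every wild type value.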
